A study of Mus musculus with 10 samples.

Results

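The genes of the mGluR6 cascade of ON bipolar cells were followed through 10 libraries of mouse retinal RNA. The members were 10 named genes (Grm6, Trpm1, Gpr179, Nyx, Lrit3, Rgs7, Rgs11, Gng13, Pcp2 and Prkca), taken by name, and all 10 were listed among the 11702 genes of the deposited tables. The mice were female. Those of the rd10 groups were B6.CXB1-Pde6brd10/J animals, which carry a mutation of Pde6b, the beta subunit of the rod phosphodiesterase, and lose their rods in the weeks after eye opening. The libraries were labelled as WT mice given DMSO (W1 to W4, n = 4), rd10 mice given DMSO (D1 to D3, n = 3) and rd10 mice given halofantrine (HAL, an antimalarial drug; H1 to H3, n = 3). Every group was injected into the vitreous with 1 μL of DMSO or of 20 μM halofantrine at P10 and P24, and retinas were collected at P36, so an uninjected retina is not among the groups. By the authors' account, no animal with a damaged eye or lens is among them. By the labels, D3, H2 and H3 form batch 2 and all other libraries batch 1. The library titles split these further. In batch 1, W1 to W3, W4, and the rd10 libraries each carry a different set name, so set runs with genotype. In batch 2, H2 and H3 share a name that D3 does not. A batch term does not take these sets into account. The retina was homogenized whole, so that fewer cells of a type and less RNA per cell cannot be told apart in any value below.

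ON bipolar cells relay the signals of rods and cones to the inner retina. In darkness, photoreceptors release glutamate, which acts on the metabotropic receptor mGluR6 (Grm6) at the dendritic tips of these cells. Through the G protein Go, the receptor holds the cation channel TRPM1 closed, and light, by lowering glutamate, lets the channel open. GPR179 anchors the regulators of G protein signaling RGS7 and RGS11, which speed the switching off of Go, and the leucine-rich repeat proteins nyctalopin (Nyx) and LRIT3 are needed for TRPM1 to gather at the synapse. Loss of Grm6, Trpm1, Gpr179, Nyx or Lrit3 causes congenital stationary night blindness. Gng13 encodes a G protein gamma subunit of the cascade, Pcp2 a modulator of Go, and Prkca the protein kinase C alpha by which rod bipolar cells are commonly stained.

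The sequence upstream of the start site is shown for the members that differed about 2-fold from W1 to W3, namely Grm6, Trpm1, Gpr179 and Nyx, which were higher in rd10 retinas, and Lrit3, which was lower. RefSeq (GRCm38.p6) held start sites for 9 of the 10 members, 14 windows in all. Each window below holds the 250 bases before a start site, 5′ to 3′, and capitals mark a match to any of the 3 motifs searched on both strands.
Grm6, chr11:50850435-50850684, plus strand: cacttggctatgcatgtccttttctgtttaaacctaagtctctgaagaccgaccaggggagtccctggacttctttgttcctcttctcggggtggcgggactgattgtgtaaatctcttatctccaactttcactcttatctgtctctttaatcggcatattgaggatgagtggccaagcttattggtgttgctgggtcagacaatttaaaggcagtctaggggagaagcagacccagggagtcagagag
Trpm1, chr7:64153585-64153834, plus strand: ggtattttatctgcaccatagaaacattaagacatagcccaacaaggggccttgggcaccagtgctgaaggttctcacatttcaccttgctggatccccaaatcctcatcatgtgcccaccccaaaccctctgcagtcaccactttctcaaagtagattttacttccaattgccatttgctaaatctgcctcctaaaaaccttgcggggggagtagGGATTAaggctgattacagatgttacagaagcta
Gpr179, chr11:97352357-97352606, minus strand: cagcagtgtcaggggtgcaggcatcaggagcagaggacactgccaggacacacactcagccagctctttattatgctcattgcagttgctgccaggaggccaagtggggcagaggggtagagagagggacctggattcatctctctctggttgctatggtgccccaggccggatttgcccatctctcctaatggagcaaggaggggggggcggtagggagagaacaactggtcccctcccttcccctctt
Nyx, chrX:13460840-13461089, plus strand: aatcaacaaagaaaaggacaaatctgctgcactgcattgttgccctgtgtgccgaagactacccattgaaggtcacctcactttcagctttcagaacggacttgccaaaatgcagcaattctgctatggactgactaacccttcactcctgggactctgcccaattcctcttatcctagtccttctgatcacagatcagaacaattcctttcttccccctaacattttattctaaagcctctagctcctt
Lrit3, chr3:129804137-129804386, minus strand: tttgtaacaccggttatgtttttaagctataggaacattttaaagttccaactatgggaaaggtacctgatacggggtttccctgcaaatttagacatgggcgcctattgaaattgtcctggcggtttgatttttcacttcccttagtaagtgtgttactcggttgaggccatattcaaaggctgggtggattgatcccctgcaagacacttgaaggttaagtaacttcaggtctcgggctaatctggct
The motifs were TAATCC, the letters read by homeodomain proteins of the OTX and CRX kind, TAATTA, a common homeodomain core, and CATATG, an E-box. They were searched in windows of 300 bases that ran from 250 bases before to 50 bases after each start site. TAATCC or its complement lay in 7.06% of all 32851 windows and in 1 of the 14 of the members, at position -34 of the Trpm1 window shown. TAATTA lay in 5.29% of all windows and in 1 of the members' windows, at position -101 of a Pcp2 start site. CATATG lay in 3.91% of all windows and in 0 of the members'. Trpm1 has a further start site in RefSeq whose window held none of the 3 motifs. These matches describe the letters of the windows only.

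Counts on genes ranged from 15512212 (D3) to 38160436 (D2) per library, and the members had 390 counts (Nyx, W3) to 32840 counts (Trpm1, D2). Levels are the deposited normalized CPM, in which the counts of each library are scaled by 1 factor. Pde6b, which carries the rd10 mutation, was at 2692, 2838 and 2862 normalized CPM in W1 to W3 but at 92.7 in W4. The rd10 DMSO libraries had 132, 156 and 387, and the rd10 HAL libraries 124, 371 and 247. Thus the library labelled WT W4 lay below all 6 rd10 libraries for this gene. The 24 genes of a rod list took 9.15% to 9.51% of the counts in W1 to W3, 0.505% in W4, 0.612% to 0.670% in the rd10 libraries of batch 1 and 1.17% to 1.66% in those of batch 2. W4 was kept by its label in the main comparisons, and each comparison with WT is also given without it.

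The receptor, the channel and their anchors Gpr179 and Nyx were about 2-fold higher in rd10 retinas than in W1 to W3. Grm6 was at 208, 191 and 186 normalized CPM in W1 to W3, at 426, 467 and 296 in D1 to D3, and at 488, 371 and 363 in H1 to H3. Trpm1, the channel gene, was at 396, 371 and 401 in W1 to W3, at 825, 818 and 835 in D1 to D3, and at 807, 702 and 780.2 in H1 to H3. In both genes every rd10 library lay above W1 to W3. Gpr179, the anchor of the RGS proteins, was at 230.3, 215 and 222 in W1 to W3, 478, 491 and 365 in D1 to D3, and 511, 457 and 466 in H1 to H3. Nyx, the nyctalopin gene, was at 26.0, 27.0 and 22.8 in W1 to W3, 58.5, 58.7 and 37.6 in D1 to D3, and 54.6, 46.7 and 46.2 in H1 to H3. Their rd10 and W1 to W3 ranges again did not overlap, and D3 was the lowest rd10 library for Grm6, Gpr179 and Nyx but the highest for Trpm1. W4 had 406 (Grm6), 825 (Trpm1), 479 (Gpr179) and 54.2 (Nyx) normalized CPM, within the rd10 range for each of the 4 genes.

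Lrit3 went the other way. It was at 103.5, 102.5 and 106.2 normalized CPM in W1 to W3, at 35.0, 44.6 and 58.0 in D1 to D3, and at 41.2, 43.6 and 47.3 in H1 to H3. All 6 rd10 libraries lay below W1 to W3, at a mean of 0.432 times their level, and W4 had 40.4. As background, LRIT3 has been found in photoreceptors, from where it organizes the receptor complex across the synaptic cleft.

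Averaged over the rd10 libraries, the regulators of G protein signaling were higher by less than the receptor. Rgs7 was at 57.3, 54.1 and 51.1 normalized CPM in W1 to W3, at 71.4, 74.8 and 94.4 in D1 to D3, and at 72.5, 78.3 and 82.1 in H1 to H3. Rgs11 was at 114, 106 and 98.0 in W1 to W3, at 149, 179 and 147 in D1 to D3, and at 185, 143 and 168 in H1 to H3. For both genes the 6 rd10 libraries lay above W1 to W3, at 1.46 times (Rgs7) and 1.53 times (Rgs11) their mean.

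For the remaining 3 members the rd10 libraries overlapped with W1 to W3. Gng13 was at 48.9, 49.6 and 44.3 normalized CPM in W1 to W3, at 64.2, 61.7 and 46.5 in D1 to D3, and at 69.6, 66.4 and 62.9 in H1 to H3. Pcp2 was at 128, 124 and 108 in W1 to W3, at 161, 165 and 115 in D1 to D3, and at 178, 145 and 146 in H1 to H3. Only D3 fell into the range of W1 to W3 for these 2 genes. Prkca, the rod bipolar marker, was at 429.9, 385 and 423 in W1 to W3, 431, 474 and 411 in D1 to D3, and 439.9, 469 and 457 in H1 to H3, the smallest difference of the 10 members. In all, 6 members had every rd10 library above W1 to W3, as did 31.1% of the 11702 genes, 1 had every rd10 library below, as did 32.8% of genes, and 3 overlapped. W4 lay within the rd10 range for 9 of the 10 members, as for 76.2% of all genes, and above it for Gng13 (73.9).

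**Figure D1:**
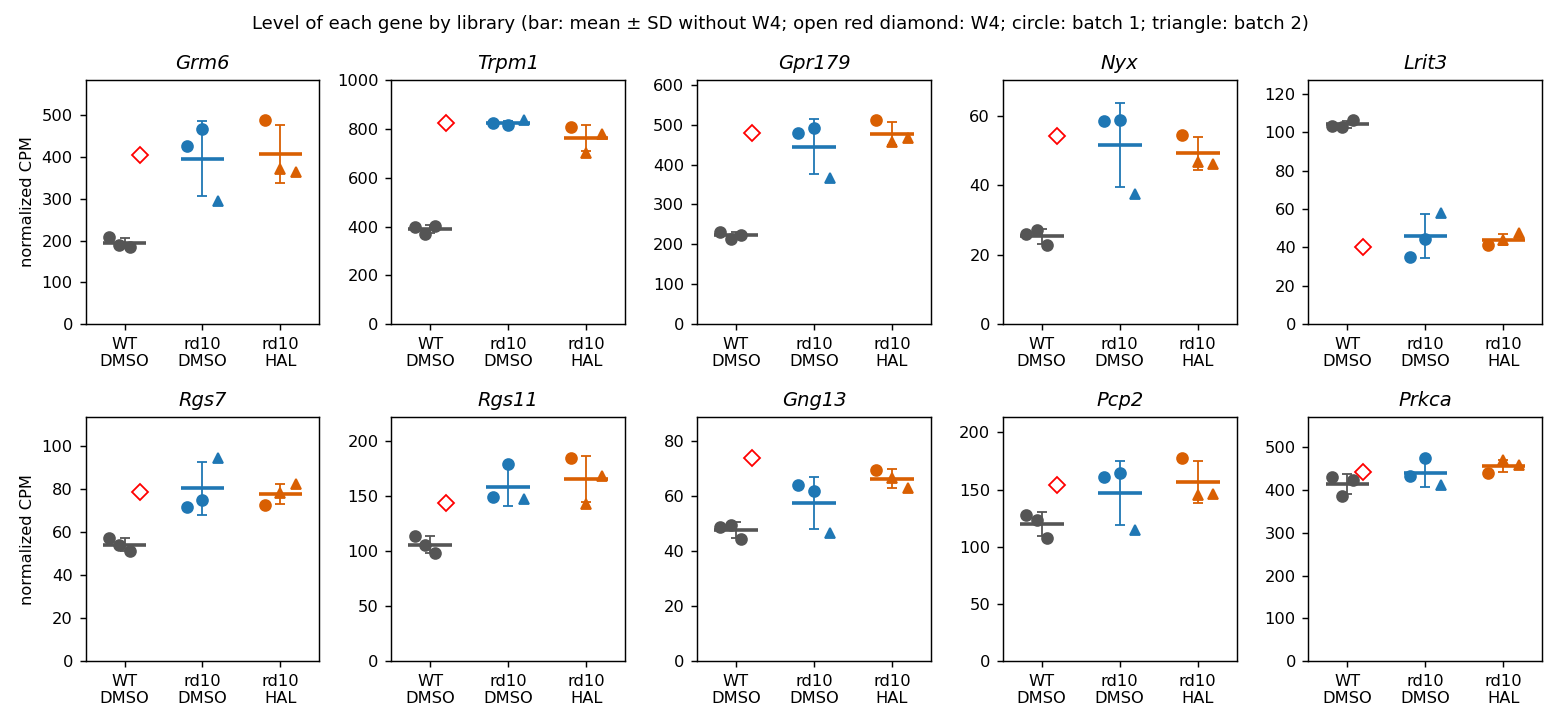
Normalized CPM of each member (vertical axis, from 0) in each library of the WT DMSO, rd10 DMSO and rd10 HAL groups. Points are libraries, bars and whiskers are the mean and SD without W4, and the open red diamond is W4, which sits among the rd10 libraries for 9 of the 10 genes and above them for Gng13.

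The first comparison asked how the cascade differs between degenerating and WT retinas under vehicle. With all 4 libraries labelled WT, 0 of the 10 members passed the test for rd10 DMSO against WT (edgeR's quasi-likelihood test with Benjamini-Hochberg adjustment over 11698 genes, 3 against 4 libraries), where 0% of all genes tested did so. The log2 fold changes of the members ranged from -0.94 (Lrit3) to 0.73 (Trpm1) with a median of 0.44, beside -0.02 over all genes, and the smallest adjusted p among all genes was 0.187. At an unadjusted p under 0.05 there were 3 members (Trpm1, Lrit3 and Rgs11) and 3108 genes, and DESeq2 called 589 genes and 0 members.

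Without W4, 7 of the 10 members passed, 6 of them higher and 1 lower, where 62.2% of all genes tested passed and 32.3% passed as higher. Trpm1 rose by 1.10 ± 0.06 on the log2 scale (SE; adjusted p = 1.98e-05 in edgeR's quasi-likelihood test, as for all members here, 3 against 3 libraries). Grm6 rose by 1.04 ± 0.16 (adjusted p = 0.00103), Nyx by 1.05 ± 0.18 (adjusted p = 0.00155) and Gpr179 by 1.02 ± 0.12 (adjusted p = 0.000244). The RGS genes rose less, Rgs11 by 0.60 ± 0.10 (adjusted p = 0.00128) and Rgs7 by 0.58 ± 0.11 (adjusted p = 0.00290). Lrit3 fell by 1.17 ± 0.16 (adjusted p = 0.000569). Gng13 (0.29, adjusted p = 0.0771), Pcp2 (0.31, adjusted p = 0.0935) and Prkca (0.11, adjusted p = 0.281) did not pass. The median over the members was 0.59, beside -0.01 over all genes. With batch as a term, which leaves the contrast to D1 and D2 against W1 to W3 of batch 1, 9 members passed (8 higher, Lrit3 lower, where 72.3% of genes passed and 36.5% passed as higher), with Gng13 at 0.42 and Pcp2 at 0.46, while Prkca was at 0.15 (adjusted p = 0.0649).

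Rods give a large share of retinal RNA, so that every other gene gains share of the counts when rod transcripts are lost, and the rise of each member was set beside that gain. The rod list fell from 9.32% ± 0.18 of the counts in W1 to W3 (SD, n = 3) to 0.991% ± 0.575 in rd10 DMSO (SD, n = 3) and 1.06% ± 0.40 in rd10 HAL (SD, n = 3). If no RNA outside the list changed, each gene outside it would thereby rise by 0.127 on the log2 scale in rd10 DMSO and by 0.126 in rd10 HAL over W1 to W3, or by 0.0921 and 0.0911 with W4 among the WT libraries. Rods also use genes outside the list, and RNA of other cells also changed, so the gain is that of the list alone. The members together took 0.151% ± 0.006 of the counts in W1 to W3 (SD, n = 3) and 0.278% ± 0.024 in rd10 DMSO (SD, n = 3).

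On the same scale, CPM by library size only, Trpm1 rose in D1 to D3 by 1.31, 1.29 and 1.32 over the mean of W1 to W3, the member with the least spread. Grm6 rose by 1.36, 1.48 and 0.82, Nyx by 1.44, 1.44 and 0.79, and Gpr179 by 1.33, 1.36 and 0.93. For these 4 genes D3 gave the lowest value in all but Trpm1, and every library lay several times above the gain from the rod list. The median of amacrine, ganglion and horizontal genes did so too, at 0.90, 0.88 and 0.68 in D1 to D3. Rgs7 was higher by 0.78 ± 0.21 (SD, n = 3) and Rgs11 by 0.80 ± 0.16, while Pcp2 was at 0.50 ± 0.30, Gng13 at 0.48 ± 0.26 and Prkca at 0.31 ± 0.11. Lrit3 lay between -1.34 (D1) and -0.63 (D3). The rod list was then taken out of the library sizes, which removes the gain from that list alone. Rods also use genes outside the list, so a rise beyond the loss of rods as a whole was not tested. With the 4 libraries labelled WT, 0 members passed in rd10 DMSO or rd10 HAL (edgeR; 4 and 3 members, and 2790 and 3718 genes, at an unadjusted p under 0.05). Without W4, 9 members passed in rd10 DMSO, 8 of them higher and Lrit3 lower, where 61.0% of all genes passed and 36.8% passed as higher. Prkca, at 0.18 (adjusted p = 0.0697), was the member that did not pass. In rd10 HAL all 10 passed, 9 of them higher and Lrit3 lower, where 70.2% of all genes passed and 41.1% passed as higher.

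**Figure D2:**
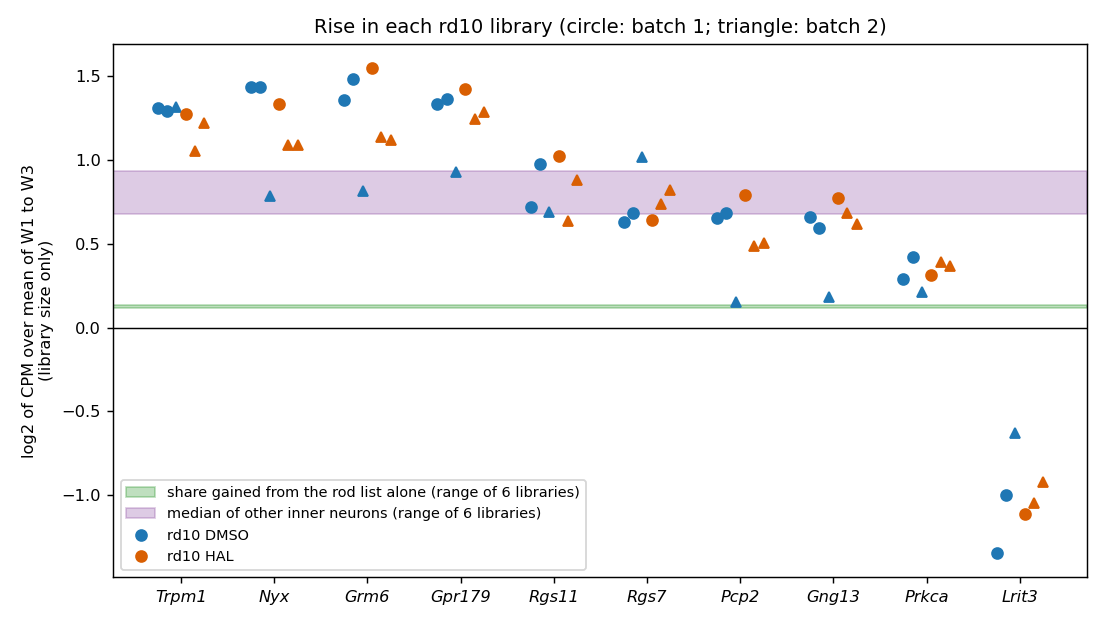
Rise of each member in each rd10 library as log2 of CPM over the mean of W1 to W3 (vertical axis, library size only), with the range over 6 libraries of the gain from the rod list (green band) and of the median of amacrine, ganglion and horizontal genes (violet band). By mean, Trpm1, Nyx, Grm6 and Gpr179 lie highest, and Prkca is lowest among the members above 0. In D3, Rgs7 lies above Nyx, Grm6 and Gpr179, and Gng13 and Pcp2 lie below Prkca. Lrit3 lies below 0.

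The members were also set beside genes of other cells of the inner retina. On CPM by library size only, the median of amacrine, ganglion and horizontal genes was higher by 0.82 ± 0.12 in rd10 DMSO (SD, n = 3) than in W1 to W3, that of Muller glia genes by 1.05 ± 0.25 and that of 19 other bipolar genes by 0.81 ± 0.16. Genes of gliosis took 0.0123% to 0.0138% of the counts in W1 to W3, 0.107% in W4 and 0.102% to 0.131% in the rd10 libraries, and those of microglia 0.00422% to 0.00463%, 0.0183% and 0.0163% to 0.0206%. Their part in the members' differences was not tested. In a fit in which the amacrine, ganglion and horizontal genes were held level in place of TMM scaling, the median of all genes moved to -0.45 with the 4 libraries labelled WT and to -0.60 without W4. Without W4, 8 members passed, 4 higher and 4 lower, where 77.3% of all genes passed and 7.96% passed as higher. The higher 4 were Trpm1 (0.51, 95% interval 0.27 to 0.75), Nyx (0.44, 0.13 to 0.76), Grm6 (0.44, 0.14 to 0.73) and Gpr179 (0.42, 0.20 to 0.64). Lrit3 (-1.75), Prkca (-0.49), Gng13 (-0.31) and Pcp2 (-0.29) were lower, where 69.3% of all genes passed as lower. Rgs7 was at 0.00 (-0.35 to 0.36) and Rgs11 at 0.00 (-0.21 to 0.22). With W4 kept, 0 members passed (the smallest adjusted p among all genes was 0.117).

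With W4 kept, 0 members passed in rd10 DMSO with amacrine, ganglion or Muller glia genes alone held level. Without W4, the count depended on the reference. With amacrine genes alone held level, 6 members passed (Trpm1 and Gpr179 higher), with ganglion genes 6 passed (Grm6, Trpm1, Gpr179 and Nyx higher), and with Muller glia genes 4 passed, none (0) of them higher, where 79.7%, 75.9% and 79.4% of all genes passed. Lrit3 and Prkca were lower and passed under each of these references, and Gng13 and Pcp2 under all but the ganglion genes. The median of all genes was -0.70, -0.49 and -0.87 under the amacrine, ganglion and Muller glia references. The fits treat the reference genes as level without error.

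**Figure D3:**
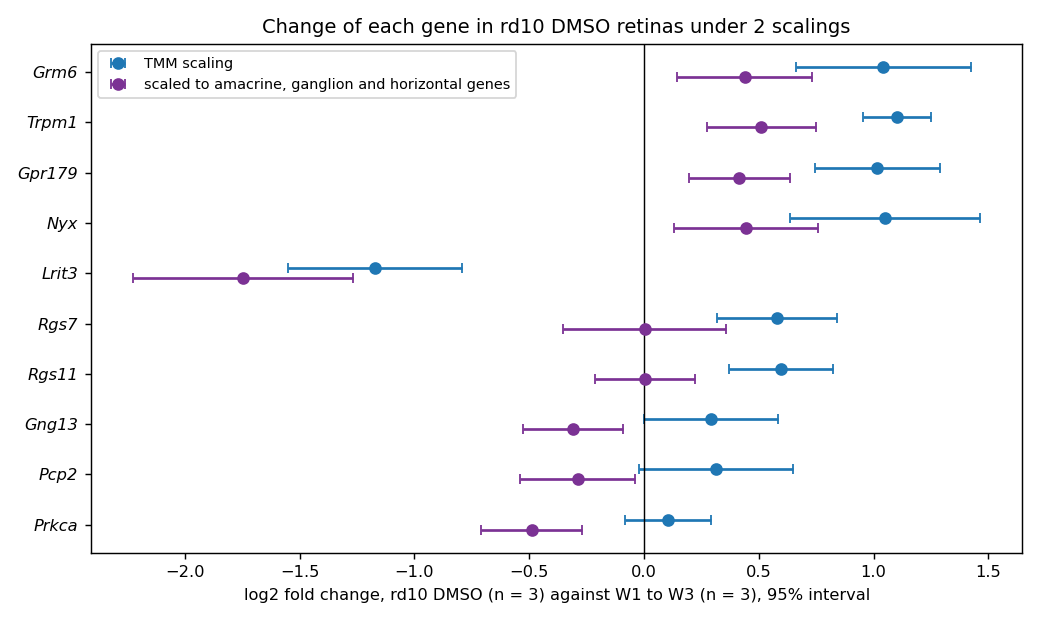
Log2 fold change of each member in rd10 DMSO (n = 3) against W1 to W3 (n = 3) with 95% intervals (horizontal axis), under TMM scaling (blue) and with amacrine, ganglion and horizontal genes held level (violet). Under the second scaling the intervals of Grm6, Trpm1, Gpr179 and Nyx stay above 0, those of Rgs7 and Rgs11 span it, and those of Lrit3, Gng13, Pcp2 and Prkca lie below it. The median of all genes under that scaling is -0.60.

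The other parts of the cascade were read from a list of 6 postsynaptic partners. Without W4, 3 rose and 3 fell in rd10 DMSO, where 32.3% of all genes tested passed as higher and 29.9% as lower. Gnao1, the alpha subunit of Go, rose by 0.79, Gnb3, its beta subunit in ON bipolar cells, by 0.71, and Rgs7bp, a membrane anchor of RGS proteins, by 0.67 (adjusted p from 0.000195 to 0.000255 in edgeR). Gnb5, the obligate partner of RGS7 and RGS11, fell by 1.51 (adjusted p = 0.000533 in edgeR), from 759, 817 and 779 normalized CPM in W1 to W3 to 223, 220.3 and 377 in D1 to D3. Rgs9bp fell by 3.06, from 1282, 1203 and 1358 to 110, 119 and 228 normalized CPM, and Lrit1 fell by 0.88. As background, Gnb5 and Rgs9bp also serve RGS9 in photoreceptors, and Lrit1 is found there too. With the other inner neurons held level, the 3 that rose no longer passed and the 3 that fell did, where 69.3% of all genes passed as lower.

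On the photoreceptor side of the synapse, 5 of 6 listed genes fell and 1 rose without W4, beside the same 29.9% of all genes that passed as lower and 32.3% as higher. Elfn1, which binds mGluR6 across the cleft, fell by 1.80, Egflam (pikachurin) by 2.10, and the channel subunits Cacna1f by 1.32, Cacnb2 by 1.42 and Cacna2d4 by 0.86 (adjusted p from 3.99e-05 to 0.000156 in edgeR). Dag1, the dystroglycan gene, rose by 0.61. Elfn1 was at 102, 107 and 101 normalized CPM in W1 to W3 and at 32.7, 33.0 and 21.8 in D1 to D3. All 6 rd10 libraries lay below W1 to W3, as for Lrit3 and for 32.8% of all genes. With the 4 libraries labelled WT, 0 of the 12 partners passed in edgeR.

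Of the 19 other bipolar genes, which mark rod, cone ON and cone OFF bipolar cells, 14 rose and 2 fell without W4, where 32.3% of all genes tested passed as higher and 29.9% as lower, with a median log2 fold change of 0.58 beside 0.59 for the members and -0.01 for all genes. The smallest p-values among those that rose were of Isl1 (1.12), an ON bipolar transcription factor, and of Grik1 (1.04) and Neto1 (1.14), a kainate receptor subunit and its auxiliary protein of OFF bipolar cells. Otx2, a transcription factor of photoreceptors and bipolar cells, was among the 2 that fell (-0.42). Sebox, at -0.06, did not pass. With the other inner neurons held level, 7 of the 19 were higher and 4 lower, where 7.96% of all genes passed as higher and 69.3% as lower, with a median of -0.02 beside 0.00 for the members.

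**Figure D4:**
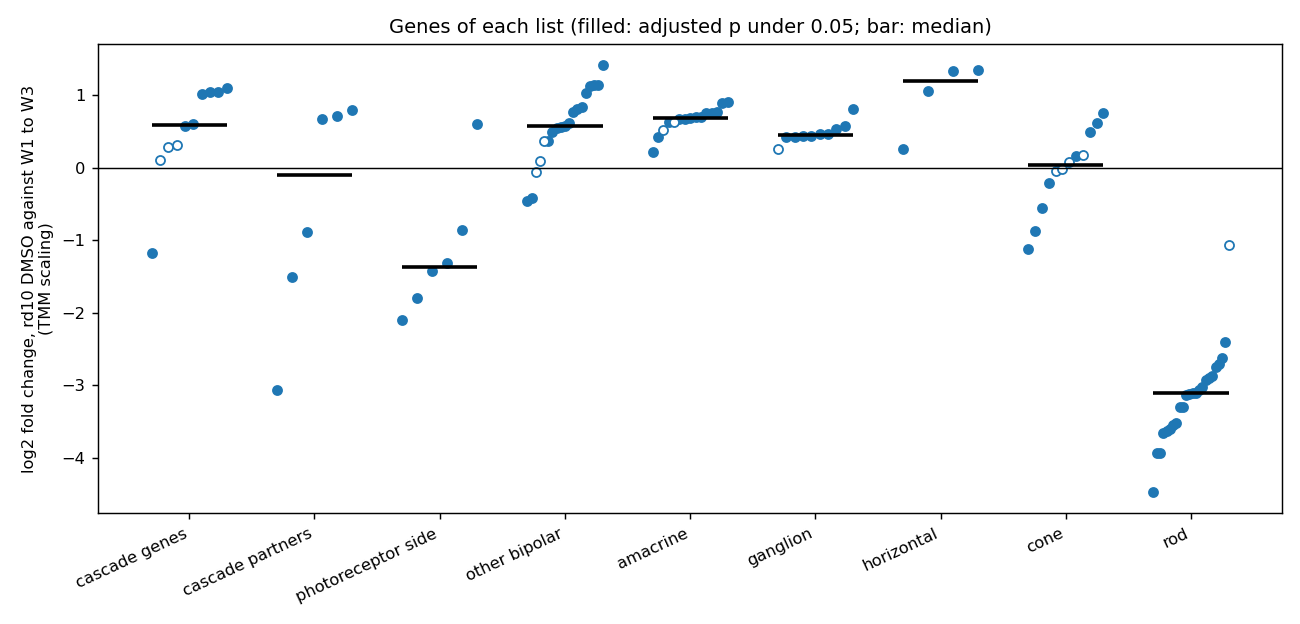
Log2 fold change of single genes in rd10 DMSO against W1 to W3 under TMM scaling (vertical axis), by gene list, with filled points for adjusted p under 0.05 in edgeR and a bar at each median. The members and other bipolar genes have medians of 0.59 and 0.58, the rod list has -3.11, and Lrit3 is the member below 0.

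Halofantrine-treated rd10 retinas were set against the same WT libraries, so that both comparisons with WT share their controls. With 4 libraries labelled WT, 0 members passed, where 0.00855% of genes (1 of 11699) did, and 5 members and 4050 genes had an unadjusted p under 0.05. DESeq2 called 2 members and 2221 genes. Without W4, 9 members passed, 8 higher and 1 lower, where 71.9% of all genes passed, 35.7% as higher and 36.2% as lower. Gpr179 rose by 1.11 ± 0.06 (SE; edgeR, adjusted p = 1.60e-06), Grm6 by 1.07 ± 0.11, Trpm1 by 0.98 ± 0.07 and Nyx by 0.96 ± 0.09. Rgs11 (0.65), Rgs7 (0.53), Gng13 (0.48) and Pcp2 (0.39) rose less, and Lrit3 fell by 1.23 ± 0.06. Prkca was at 0.15 (adjusted p = 0.0576 in edgeR). With the other inner neurons held level, 83.6% of all genes passed, 7.70% as higher and 75.9% as lower. The median of all genes was then -0.70. The members that were higher were Gpr179 (0.43), Grm6 (0.39), Trpm1 (0.29) and Nyx (0.28). Lrit3 (-1.92), Prkca (-0.53), Pcp2 (-0.29) and Gng13 (-0.20) were lower than in WT. Without W4, the same 4 were higher with amacrine genes alone (8 members passed, 83.6% of genes) or ganglion genes alone (6 members, 82.9%) held level. Only Gpr179 was higher with Muller glia genes held level (7 members, 85.1%). With W4 kept, 0 members passed in rd10 HAL under any of these references. With batch as a term, the contrast is left to H1 alone against W1 to W3, and its error is taken from the spread of the other libraries, to which H1 is assumed to be like. In that fit 9 members passed under TMM, 8 of them higher, where 66.7% of all genes passed and 33.6% passed as higher.

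The effect of the drug itself was read from rd10 HAL against rd10 DMSO. None (0) of the members passed, where 0% of 11692 genes did (edgeR; 0 members and 557 genes at an unadjusted p under 0.05; DESeq2, 3 genes and 0 members). The largest differences were of Gng13, at 0.20 (95% interval -0.09 to 0.49), and Trpm1, at -0.11 (-0.27 to 0.05). Grm6 was at 0.04 (-0.40 to 0.48), Gpr179 at 0.10 (-0.18 to 0.38), Nyx at -0.08 (-0.48 to 0.33) and Lrit3 at -0.05 (-0.44 to 0.34). Prkca was at 0.05 (-0.11 to 0.22), and its interval and that of Trpm1 were the narrowest. The intervals of Rgs7 (-0.30 to 0.22), Rgs11 (-0.22 to 0.34) and Pcp2 (-0.27 to 0.45) also held 0. The members' median was 0.05, beside 0.00 over all genes, and it was 0.14 without D2, -0.0045 without D3 and -0.01 without H1.

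Within batch 1, H1 was higher than the mean of D1 and D2 by 0.13 for Grm6, 0.08 for Gpr179, 0.15 for Gng13 and 0.13 for Pcp2 on the log2 scale. Within batch 2, the mean of H2 and H3 was higher than D3 by 0.31, 0.34, 0.47 and 0.34 for the same genes. Nyx had -0.10 in batch 1 and 0.31 in batch 2, and Lrit3 0.06 and -0.35. Trpm1 had -0.03 and -0.17, Rgs7 -0.01 and -0.24, Rgs11 0.18 and 0.07, and Prkca -0.04 and 0.17. A batch holds a single HAL or a single DMSO library, too few for a test. With batch as a term, Grm6 (0.22), Gpr179 (0.21), Gng13 (0.31) and Pcp2 (0.24) had an unadjusted p under 0.05, as did 1952 of 11692 genes, and an adjusted p of 0.268 in edgeR, and 0 genes passed. With each library's trend over the GC content of transcripts also taken out, Grm6 (0.17) and Pcp2 (0.20) had an unadjusted p under 0.05, as did 1018 of 11472 genes, with an adjusted p of 0.552 in edgeR, and the members' median was 0.06 in place of 0.11.

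**Figure D5:**
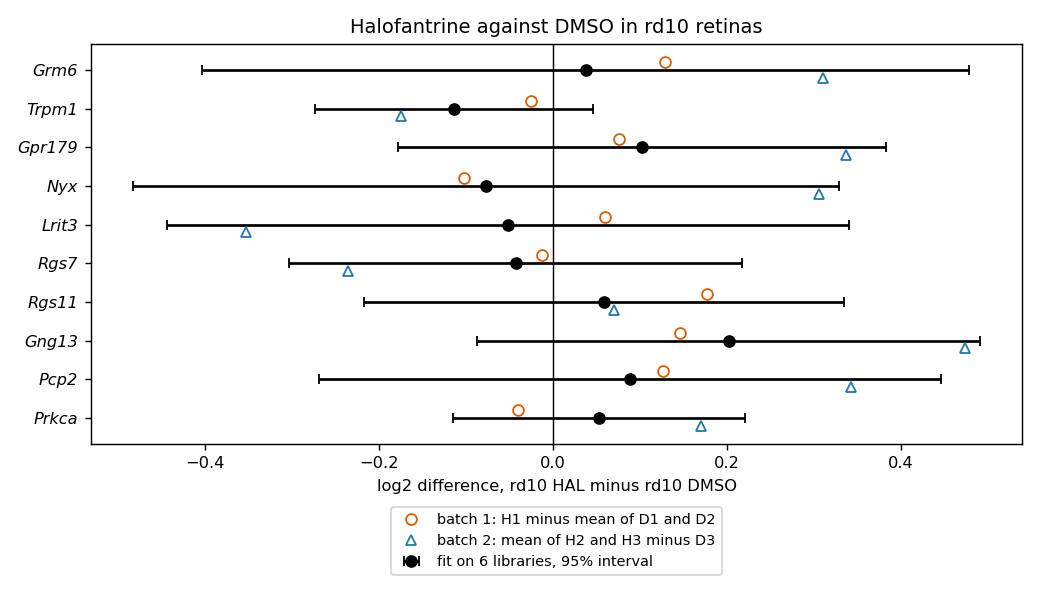
Log2 difference between rd10 HAL and rd10 DMSO for each member (horizontal axis), from the fit on 6 libraries with its 95% interval (black) and within each batch (open symbols). Every interval holds 0, and the batch 2 differences, which rest on D3, lie farther from 0 than those of batch 1 for 9 of the 10 genes.

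Among the 6 rd10 libraries some members varied together and others in the opposite direction. All libraries of batch 2 lay below those of batch 1 for Grm6, Gpr179, Nyx and Pcp2, as for 13.0% of all genes, and above them for Rgs7, as for 15.0%. Pearson's r of log2 levels over these 6 libraries was 0.98 between Grm6 and Pcp2 and 0.93 between Grm6 and Gpr179, and it was -0.93 between Grm6 and Rgs7. Lrit3 went with Rgs7 (r = 0.93), and Trpm1 with neither (r = 0.10 with Grm6, 0.07 with Rgs7). D3, the shallowest library, stood farthest from the mean of the other rd10 libraries in 8 members, at -0.50 for Grm6, -0.48 for Nyx, -0.47 for Gng13, -0.46 for Pcp2, -0.39 for Gpr179, -0.14 for Prkca, 0.31 for Rgs7 and 0.45 for Lrit3 on the log2 scale. In D3 the GC content of transcripts moved with the level. The fifth of genes with the highest GC content was at a median of -0.26 against the other rd10 libraries and the fifth with the lowest at 0.11. Gng13 (59.1% GC), Gpr179 (56.3%) and Grm6 (54.7%) lie on the GC-rich side and Rgs7 (45.0%) on the GC-poor side, while Trpm1 (50.9%) and Lrit3 (50.7%) lie between them. Lrit3, near the middle, was at 0.45 in D3. Prkca (46.4%), which is GC-poor, was at -0.14 in D3, and Rgs11 (55.8%), which is GC-rich, was at -0.15. With each library's GC trend taken out, the HAL minus DMSO difference of Gng13 was 0.05 in place of 0.20 and that of Gpr179 0.04 in place of 0.10. Over the 10 members the differences then ranged from -0.11 to 0.08 with a median of 0.01, in place of -0.11 to 0.20 with a median of 0.05, and 0 passed in either fit (edgeR). GC content was not tested in the comparisons with WT.

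Per kilobase of transcript, the members spanned a wide range. In W1 to W3 the levels were highest for Pcp2, at 116 ± 10.2 CPM per kb (SD, n = 3), followed by Gng13 at 87.6 ± 5.32 and Trpm1 at 78.2 ± 3.21. Grm6 (52.5 ± 3.14), Rgs11 (51.3 ± 3.86) and Prkca (49.4 ± 2.87) followed, and neighbours among these 3 differed by less than their SDs. Lrit3 was at 43.3 ± 0.79, Gpr179 at 24.6 ± 0.88, Rgs7 at 22.0 ± 1.25 and Nyx at 4.87 ± 0.42. In rd10 DMSO, Trpm1 came first at 166 ± 1.70, within the spread of Pcp2 at 142 ± 26.9. Grm6 (107 ± 24.1) and Gng13 (106 ± 17.6) followed and were not separated, and Lrit3 came next to last at 19.1 ± 4.81, above Nyx at 9.95 ± 2.34. Lengths are of M21 transcripts matched by identifier without version, weighted by their counts.

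The transcript tables show which isoforms carry these levels. Trpm1-201 held 69.2% ± 2.62 of the Trpm1 counts in W1 to W3 (SD, n = 3) and 71.2% ± 2.49 in the 6 rd10 libraries (SD, n = 6). Grm6-201 held 61.5% ± 0.66 and 63.0% ± 2.57. Lrit3-202 held 96.9% ± 0.81 and 98.3% ± 0.52, so that its lower level was carried by the same isoform in both. Gpr179-201 held 97.6% and 97.4%, and Prkca-201 99.3% and 98.5%. Gng13 was split between Gng13-202 (52.7% and 53.2%) and Gng13-201 (47.3% and 46.8%), and Nyx has a single transcript. The shares of these main isoforms differed between the 2 sets of libraries by less than 3 percentage points, beside SDs of up to 7.01 (Gng13). For Lrit3-202 and Prkca-201 (SD 0.25 and 0.52) the difference was larger than either SD. Rgs7-203 held 36.3% ± 3.30 and 38.6% ± 5.33, Rgs11-205 27.7% ± 2.22 and 26.2% ± 1.84, and Pcp2-202 46.1% ± 2.99 and 46.0% ± 2.61. Among lesser isoforms, Rgs7-204 moved from 18.6% ± 0.69 to 15.0% ± 1.37 and Rgs11-208 from 22.1% ± 2.25 to 25.2% ± 2.06.

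The genes whose level ran most like the mean standardized level of the members over all 10 libraries included Arhgap44, Mboat7, Fam196a and Trpc4 (Pearson's r = 0.99 each). Over the 6 rd10 libraries alone they were Dzip1, Car10, Frmd4a, Kif1a and Sema4f (0.99 each). The members' own r with this mean over the 10 libraries ran from 0.74 (Prkca) to 0.99 (Gpr179), with -0.96 for Lrit3. Over the 6 rd10 libraries it was 0.92 for Grm6, 0.12 for Trpm1 and -0.77 for Rgs7. Each member is itself part of this mean, which raises its own r. The points share their libraries, their scaling and, over 10 libraries, the separation of W1 to W3 from the rest.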

How the data were processed

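Total RNA of homogenized retinas was made into stranded polyA libraries by the authors, who assigned reads to Ensembl mouse transcripts by Kallisto (GRCm39 per the labels) and summarized them with tximport. The deposited tables hold estimated counts per transcript (275112) and per gene (11702), and not all gene values are whole numbers. They also hold a normalized CPM per gene, used here as a signal scaled by the authors with 1 factor per library. The authors' table of their own comparison was not used. Symbols matched for 11492 genes. The estimated counts were rounded, filtered by filterByExpr, scaled by TMM and tested with edgeR 4.0.16 (quasi-likelihood, R 4.3.3, Benjamini-Hochberg, threshold 0.05), with only the libraries of the groups compared. DESeq2 1.42.0, limma 3.58.1, other scalings and filters, a batch term, and leaving out each library were alternatives; a GC offset (lowess, span 0.3, for the 98.1% of genes with a GC value), the combinations with leaving out W4 and the references of single cell types without W4 were added after seeing the data. Deposited CPM was tested on log2 of the value plus 1. Standard errors come from the F statistic and intervals are at 95%.

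The members and gene lists were chosen with earlier results of these data known. All members and partners are named, other bipolar genes by the 3 smallest p-values per direction without W4, and similar genes by the 5 highest correlations; genes that these rules name but the text does not are not reported here. In simulated counts the spread was that of D1 to D3, and only a small sample of well-counted genes was changed. The test of rd10 DMSO against WT without W4, run on 11698 genes, recovered 93% of 2-fold and 39% of 1.5-fold changes. That of HAL against DMSO recovered 96% and 33%. The 2 tests made 20 and 12 further calls that were false. Without W4 far more genes differed from WT in the data, so these rates need not hold there. The labels do not say that each library is a separate mouse, and p-values measure the spread between these libraries. Within a group, chi-square per gene between libraries was 4.48 to 431, and none was counted as a copy.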

Additional observations from a re-analysis of the deposited data

Results flagged for a closer look

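In the WT DMSO group of 4 libraries, 7 of the 12 values tested had 1 library far from the other 3, by the gap to its nearest neighbour as a share of the range (limit 0.829, which chance passes in about 1 of 20 groups). The share was 0.900 for Grm6, 0.934 for Trpm1, 0.940 for Gpr179, 0.866 for Nyx, 0.944 for Lrit3, 0.939 for Pde6b and 0.960 for the rod list's share of counts. The library was W4 each time. Rgs7, Rgs11, Gng13, Pcp2 and Prkca stayed under the limit.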

How the results depend on the processing

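Leaving out W4 and the choice of the genes held level both moved the comparisons with WT. Over fits that left out 1 library each, members called ranged from 0 to 7 for rd10 DMSO against WT and from 0 to 9 for rd10 HAL against WT, with W4 left out giving the highest count in each, and genes called from 0 to 7280 and from 0 to 8408. With W4 left out and the tool, the filter, the library sizes or a batch term also changed, the counts were 7 to 10 for rd10 DMSO and 9 to 10 for rd10 HAL, where 61.0% to 72.3% and 66.7% to 72.4% of all genes passed, and the members' median was 0.793 and 0.794 by library size only (0.19 over all genes in each), 0.667 and 0.669 with the rod list out of the library sizes, and 0.689 for rd10 HAL with a batch term. Held level on other inner neurons without W4, the members' medians were 0.0033 and -0.0974, beside -0.60 and -0.70 over all genes. In each comparison 8 members passed, where 77.3% and 83.6% of all genes did. Gng13 (-0.31 and -0.20), Pcp2 (-0.29 and -0.29) and Prkca (-0.49 and -0.53) changed sign in both, as did Rgs7 (-0.16) and Rgs11 (-0.04) in rd10 HAL. Held level on amacrine, ganglion or Muller glia genes without W4, 6, 6 and 4 members passed for rd10 DMSO and 8, 6 and 7 for rd10 HAL. Of all genes, 75.9% to 79.7% and 82.9% to 85.1% passed in these fits. With W4 kept, 0 members passed under each of these references in both comparisons. The gain from the rod list ranged from 0.0797 to 0.127 and from 0.0787 to 0.126 over fits without 1 library. The cause of these moves was not tested, beyond the libraries and references that define them.

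With all libraries and the other inner neurons held level, the members' median was 0.0561 in place of 0.44 for rd10 DMSO and -0.0404 in place of 0.45 for rd10 HAL. DESeq2 called 2 members for rd10 HAL against WT, where it called 19.0% of all genes. For HAL against DMSO, 0 members passed in every fit and 0 to 7 genes passed in fits without 1 library (7 without D2). No paired analysis was possible because the labels pair no mice across groups, and replicate numbers were given in accession order. The single DMSO library of batch 2, D3, is also the shallowest, which limits the drug comparison within batches.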
